A study of Mus musculus with 21 samples.

Results

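Endothelial and angiogenesis genes were examined in RNA-seq libraries of mouse hearts under pressure overload, with or without semaglutide. The set held 37 genes, listed by their known function. Of these, 23 mark endothelial identity, 12 mark tip cells and endothelial growth factor signalling, and 2, Notch1 and Hey1, belong to the Notch pathway and to neither class. All 37 were found among 22136 counted genes, and all 37 were among the 12685 genes kept for testing, which had at least 10 counts in at least 3 libraries. Depth differed widely among them. Reads reached 10 counts in every one of the 21 libraries for 29 of the genes, but only in 9 libraries for Angpt1, 7 for Apln and 3 for Esm1. The 3 libraries of Esm1 were the TAC 8W libraries, so Esm1 was kept only through the group in which it was high, and its calls are given as values and not counted as evidence about the set.

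Endothelial cells line every vessel of the heart, and their capillaries run beside each cardiomyocyte. Their identity rests on junction and surface proteins (Cdh5, Pecam1), on receptors for VEGF and angiopoietins (Kdr, Flt1, Tek) and on ETS and SOX transcription factors (Erg, Fli1, Sox17, Sox18). New vessels sprout behind a tip cell, which responds to VEGF-A through Kdr and the neuropilin co-receptors, carries the Notch ligand Dll4 and releases Esm1 and apelin, while Notch signalling in its neighbours restrains further sprouting. In the heart, cardiomyocytes are a major source of VEGF-A and VEGF-B.

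The libraries came from left ventricular tissue of male wild-type C57BL/6J mice that were 8 weeks old at the start of acclimation, 3 libraries a group. Transverse aortic constriction (TAC) narrows the aorta and loads the left ventricle with pressure, and a sham operation leaves the aorta open. Semaglutide (Sema), a GLP-1 receptor agonist, was injected daily into the abdomen at 60 per kg, in mg by the series record and in µg by the study's methods, and other mice had vehicle. The TAC groups had TAC for 8 weeks with Sema for all 8 weeks (TAC 8W + Sema 8W), Sema for the last 4 (TAC 8W + Sema 4W) or vehicle (TAC 8W). Sham mice had Sema in the set of the 8-week arm (Sham + Sema 8W) or of the 4-week arm (Sham + Sema 4W), or vehicle. No label ties the vehicle shams to an arm. By their running numbers, Sham 1 to 3 were set beside the 8-week arm and Sham 4 to 6 beside the 4-week arm. The labels of the Sham + Sema 8W mice give no duration. In the count table the 6 columns read as the 4-week Sema groups carry an M that no source used here defines, and they were assigned by elimination, so every value of TAC 8W + Sema 4W and Sham + Sema 4W rests on that reading. The 3 columns of TAC 8W + Sema 8W are marked high. Nothing in the labels says that each library was a separate mouse, so the p-values measure the spread between these libraries. In bulk tissue, fewer cells of a type and less RNA per cell cannot be told apart.

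The libraries held 8897837 to 17170139 counts (median 12933772). The labels name the cells as cardiomyocytes, but markers of several cell types were present throughout. The summed level of 10 cardiomyocyte markers was 38596 to 129933 CPM (read counts scaled to library size), that of the 23 endothelial identity genes 742 to 1699 CPM and that of 10 fibroblast markers 719 to 4172 CPM. Mitochondrially encoded genes took 43.8% to 54.9% of counts in 9 libraries, those of TAC 8W + Sema 4W, Sham 4 to 6 and Sham + Sema 4W. In the other 12 they took 20.2% to 40.8%, so a comparison between those sets of libraries also compares the sets. Replicate 3 of TAC 8W + Sema 4W had the lowest mean correlation with its own group, 0.884, where the other 20 libraries lay between 0.922 and 0.975. TAC 8W replicate 2 stood apart within its group for many of the genes below.

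Promoter sequences are given for the 4 genes that passed the test against TAC 8W, Esm1 included, and they come from RefSeq on GRCm38.p6. RefSeq start sites were matched for 22 of the 37 genes, with 29 windows of 300 bases from 250 before to 50 after the start, of 32851 such windows in all. Capitals mark TGGGAA, the core site of the Notch effector RBPJ, and AGGAAG, an ETS core, each searched on both strands and written as it reads on the gene's strand. The 250 bases before the start were read for Vegfa at chr17:46032378-46032627 (minus strand), Esm1 at chr13:113209409-113209658 (plus), Nrp1 at chr8:128358823-128359072 (plus) and Kdr at chr5:75978456-75978705 (minus).
Vegfa: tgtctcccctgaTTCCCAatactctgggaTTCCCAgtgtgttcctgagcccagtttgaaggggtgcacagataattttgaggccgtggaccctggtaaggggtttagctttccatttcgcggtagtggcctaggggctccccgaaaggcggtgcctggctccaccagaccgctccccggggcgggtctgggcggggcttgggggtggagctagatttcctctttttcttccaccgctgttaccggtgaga
Esm1: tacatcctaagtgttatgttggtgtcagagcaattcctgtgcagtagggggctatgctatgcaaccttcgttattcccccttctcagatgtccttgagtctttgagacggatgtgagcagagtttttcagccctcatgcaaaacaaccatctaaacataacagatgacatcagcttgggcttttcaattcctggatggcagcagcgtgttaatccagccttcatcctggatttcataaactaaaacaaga
Nrp1: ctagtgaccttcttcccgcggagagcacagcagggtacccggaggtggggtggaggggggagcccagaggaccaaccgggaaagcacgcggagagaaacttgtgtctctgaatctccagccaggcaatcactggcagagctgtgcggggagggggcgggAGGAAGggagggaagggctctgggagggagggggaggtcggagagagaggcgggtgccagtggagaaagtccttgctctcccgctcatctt
Kdr: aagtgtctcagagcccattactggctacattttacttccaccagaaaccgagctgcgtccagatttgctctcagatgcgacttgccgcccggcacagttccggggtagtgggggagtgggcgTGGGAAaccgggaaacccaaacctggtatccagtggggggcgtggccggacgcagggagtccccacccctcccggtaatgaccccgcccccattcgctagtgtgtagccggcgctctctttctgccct
Vegfa held TGGGAA on the reverse strand at -238 and -221 from the start, Kdr held it at -128 on the gene's strand, and Nrp1 held AGGAAG at -91. Esm1 held neither. TGGGAA was in 9 of the 29 windows (31.0%), against 25.6% of all windows, and AGGAAG in 12 (41.4%), against 35.4%. A further ETS form, CGGAAG, was in 1 (3.45%, of Tie1), against 16.9%, and ACGTG, the core of the hypoxia response element, in 2 (6.90%), against 19.6%. These are matches of letters only.

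Per kilobase of exon, the genes spanned a wide range of levels in the Sham 1 to 3 hearts. Vegfb, a VEGF ligand abundant in heart muscle, stood highest at 123 ± 7.82 CPM per kb (SD, n = 3), followed by the water channel Aqp1 at 37.7 ± 5.95, Gpihbp1, which anchors lipoprotein lipase on capillaries, at 29.6 ± 6.35, the TGF-beta co-receptor Eng at 23.7 ± 4.06 and VE-cadherin, Cdh5, at 22.7 ± 4.24 CPM per kb. Vegfb stood clear of the rest, Aqp1 and Gpihbp1 differed by more than either SD, and the steps from Gpihbp1 to Eng and from Eng to Cdh5 were within the larger SD. Pecam1 stood at 17.6 ± 0.74 and Kdr at 9.13 ± 0.43 CPM per kb. Vegfa reached 8.51 ± 1.13 and Nrp1 4.13 ± 0.62 CPM per kb. The 4 lowest were Angpt1 at 0.52 ± 0.07, Angpt2 at 0.52 ± 0.12, Apln at 0.47 ± 0.09 and Esm1 at 0.07 ± 0.01 CPM per kb.

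**Figure D1:**
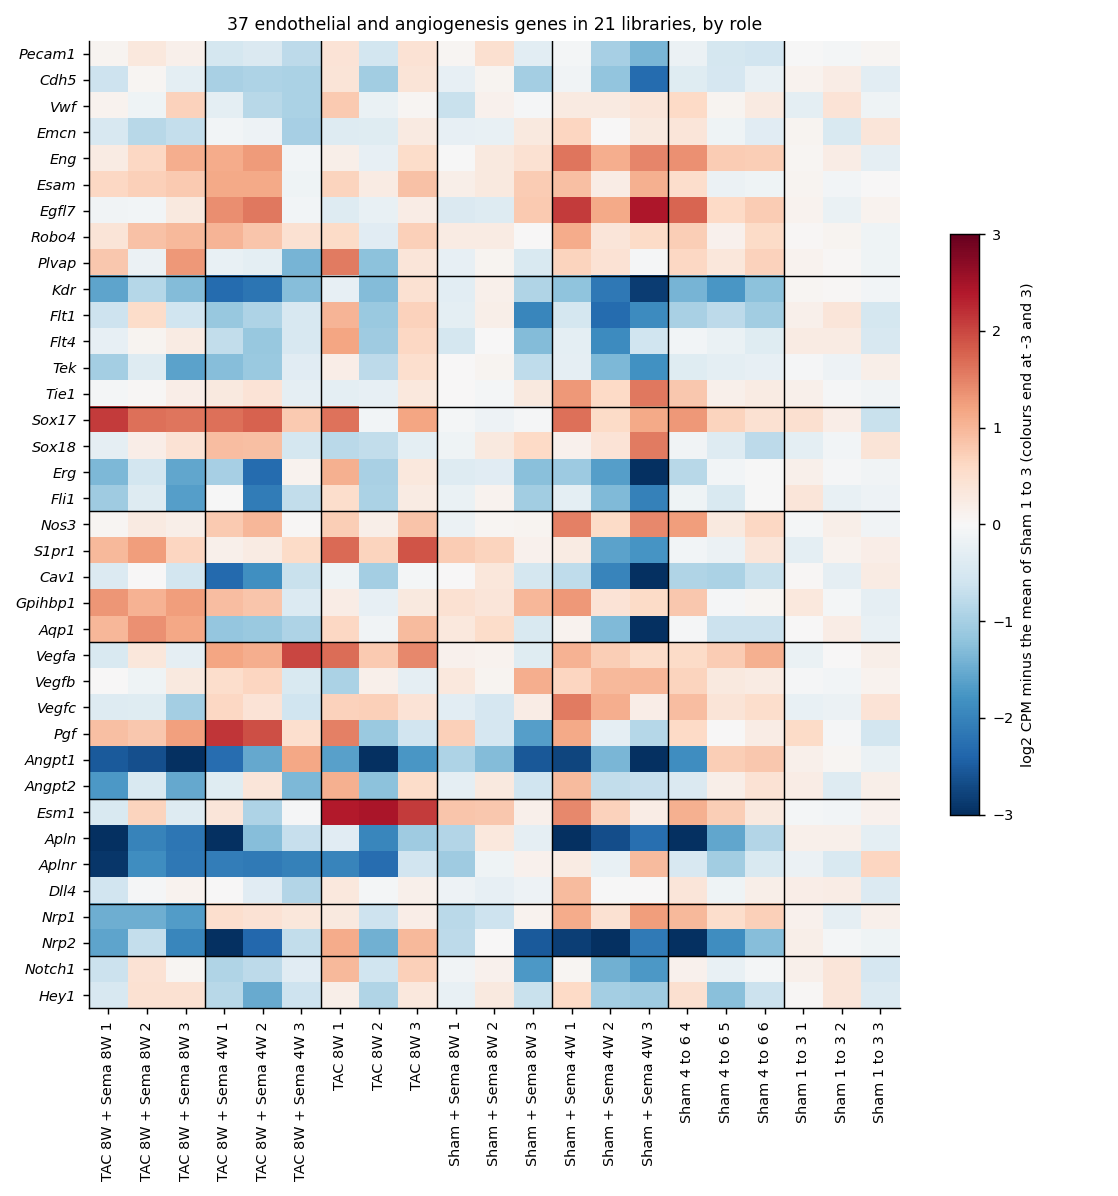
Log2 CPM of the 37 genes in each of the 21 libraries, as the difference from the mean of the Sham 1 to 3 libraries, with genes in rows by role and libraries in columns by group. Esm1 was highest in the 3 TAC 8W columns, Nrp1 was lowest in the 3 TAC 8W + Sema 8W columns, and TAC 8W replicate 2 was lower than the other TAC 8W libraries for Kdr, Flt4 and Nrp2.

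The effect of pressure overload was read from TAC 8W against Sham 1 to 3. Vegfa, the main VEGF ligand, rose in TAC 8W hearts. It was 1 of the 36 genes other than Esm1, and none of the rest passed the test (edgeR quasi-likelihood test, adjusted p under 0.05), where 2.19% of all genes tested passed it. Esm1, a secreted tip-cell proteoglycan, was also higher, but was kept for testing only through TAC 8W. Of the 23 identity genes, 0 passed the edgeR test, with 3 at an unadjusted p under 0.05 and 1 called by DESeq2 and 1 by limma-voom. Over all genes, 12% were at an unadjusted p under 0.05, and the shares called by DESeq2 and limma-voom are not given here. The median log2 fold change of the identity genes was 0.19, that of the tip-cell and growth factor genes was 0.11 without Esm1 (11 genes) and 0.25 with it, and that of all genes was 0.08.

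Vegfa (ENSMUSG00000023951, chr17:46016993-46032369 in GRCm38) had 117, 62.2 and 98.4 CPM in the TAC 8W libraries, against 31.4, 36.8 and 41.1 CPM in Sham 1 to 3. The lowest TAC 8W library lay above the highest sham. The means were 92.6 ± 27.9 and 36.4 ± 4.84 CPM (SD, n = 3 each), a 2.54-fold difference (log2 1.35, SE 0.29, adjusted p = 0.0168). The call was lost without TAC 8W replicate 1, without Sham replicate 1 or without Sham replicate 2. It was also lost with all 6 shams as the reference and with replicate number added to the fit as a block. Esm1 (ENSMUSG00000042379, chr13:113209659-113218098) had 35, 16 and 14 counts in TAC 8W, or 1.35, 1.42 and 1.07 CPM, against 2, 2 and 2 counts, or 0.126, 0.121 and 0.164 CPM, in Sham 1 to 3. The groups lay far apart, but on very few reads. Pooled over the libraries, 65 counts against 6 gave a ratio of 9.60. Its 95% exact interval of 4.18 to 27.1 covers counting error only. The fitted log2 was 3.15 (SE 0.71, adjusted p = 0.0216). This call was lost without TAC 8W replicate 1, without any single sham, or with the replicate block.

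The other growth factors and the apelin axis did not pass. Angpt1, the activating ligand of Tek, had 20, 2 and 9 counts in TAC 8W, against 48, 46 and 28 in Sham 1 to 3, a pooled ratio of 0.225 (0.147 to 0.336; fitted log2 -2.23, SE 0.89, adjusted p = 0.283). Aplnr, the apelin receptor, had 3.96, 3.19 and 10.8 CPM in TAC 8W, against 14.2, 11.6 and 25.1 CPM in Sham 1 to 3 (log2 -1.5, SE 0.44, adjusted p = 0.0914). No library of TAC 8W reached the lowest sham, and the gap between 10.8 and 11.6 CPM was small. Vegfb, Vegfc, Pgf and Angpt2 had log2 fold changes of -0.29, 0.60, 0.39 and 0.45.

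Among identity genes the largest difference was that of S1pr1, a sphingosine 1-phosphate receptor that steadies capillary junctions. It had 52.8, 25.6 and 59.9 CPM in TAC 8W, against 13.1, 17.5 and 18.4 CPM in Sham 1 to 3, without overlap (log2 1.5, SE 0.41, adjusted p = 0.0599). Sox17, which directs arterial identity, had 19.8, 5.94 and 14.6 CPM in TAC 8W, against 8.87, 7.19 and 3.86 CPM in Sham 1 to 3 (log2 1.02, SE 0.40, adjusted p = 0.272), and here replicate 2 fell among the shams. The 9 surface, junction and secreted proteins, Pecam1, Cdh5, Vwf, Emcn, Eng, Esam, Egfl7, Robo4 and Plvap, had log2 fold changes of -0.17 to 0.67, and the receptors Kdr, Flt1, Flt4, Tek and Tie1 had -0.19 to 0.50. Pecam1, the platelet-endothelial adhesion molecule, had 145, 74.5 and 149 CPM in TAC 8W, against 108, 106 and 115 CPM in Sham 1 to 3, so the TAC 8W libraries lay on both sides of the shams. Nos3, the endothelial nitric oxide synthase, had log2 0.61 (SE 0.29, adjusted p = 0.41), and Cav1, the coat protein of caveolae, had log2 -0.36 (SE 0.44, adjusted p = 0.873). Vwf, the clotting factor carrier, averaged 1.19-fold (log2 0.25, SE 0.30, adjusted p = 0.871), and Notch1 had log2 0.47 (SE 0.47, adjusted p = 0.828).

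**Figure D2:**
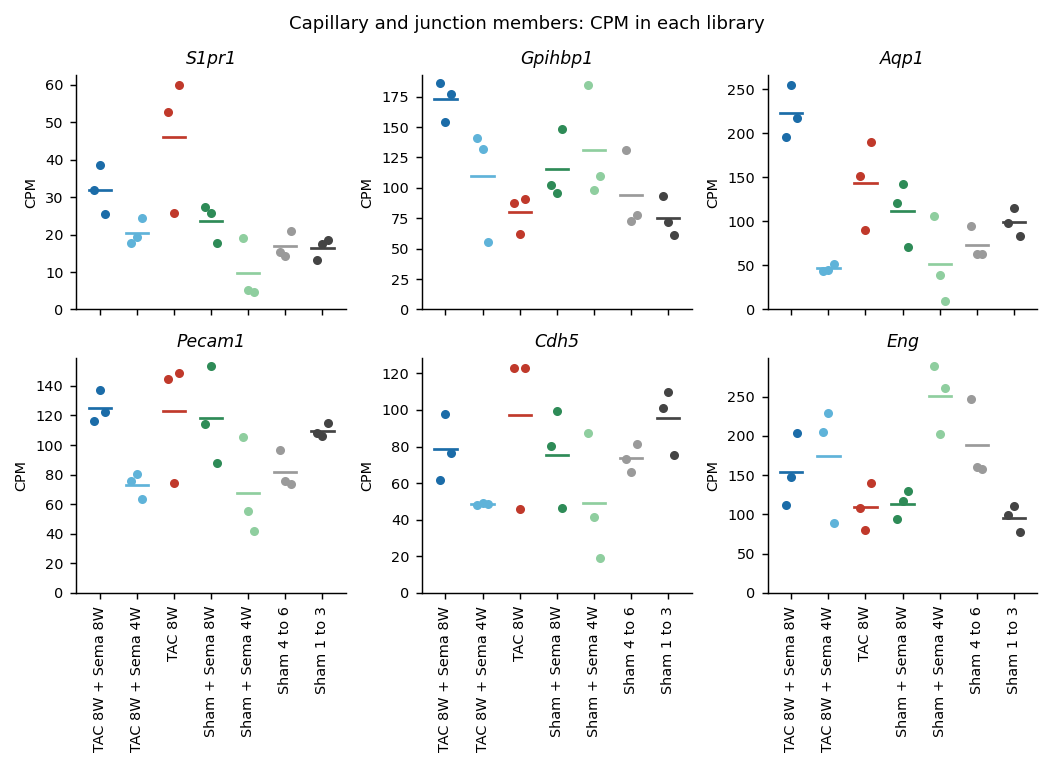
CPM in every library, by group, of the capillary genes S1pr1, Gpihbp1 and Aqp1 and the surface and junction genes Pecam1, Cdh5 and Eng, with points for libraries, lines for group means and a vertical axis that starts at 0. Pecam1 in TAC 8W spread from 74.5 to 149 CPM around the Sham 1 to 3 values of 106 to 115 CPM, and TAC 8W replicate 2 was the low point.

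Markers of other cells moved in this comparison. Of 10 fibroblast markers, 4 passed the test and all 4 were higher (Col1a1, Col1a2, Col3a1 and Postn), with a summed level of 1479 to 4172 CPM in TAC 8W, against 1622 to 2105 CPM in Sham 1 to 3. Of 10 macrophage markers 0 passed, with sums of 87.2 to 364 CPM in TAC 8W, against 190 to 274 CPM in Sham 1 to 3, and of 10 cardiomyocyte markers 0 passed, with sums of 38596 to 77683 CPM in TAC 8W, against 65753 to 70518 CPM in Sham 1 to 3. All markers of these lists passed the count filter. The part of these shifts in the values above was not tested. TAC 8W replicate 2 had a median log2 difference of -0.37 over the identity genes from the Sham 1 to 3 mean, where replicates 1 and 3 had 0.52 and 0.44. TAC 8W replicate 1 stood apart too. Its median log2 difference from the same shams was -0.84 over the cardiomyocyte markers, where replicates 2 and 3 had -0.01 and -0.12, and 1.07 over the fibroblast markers, where they had -0.56 and 0.58. Without this library the calls of Vegfa and Esm1 were lost.

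**Figure D3:**
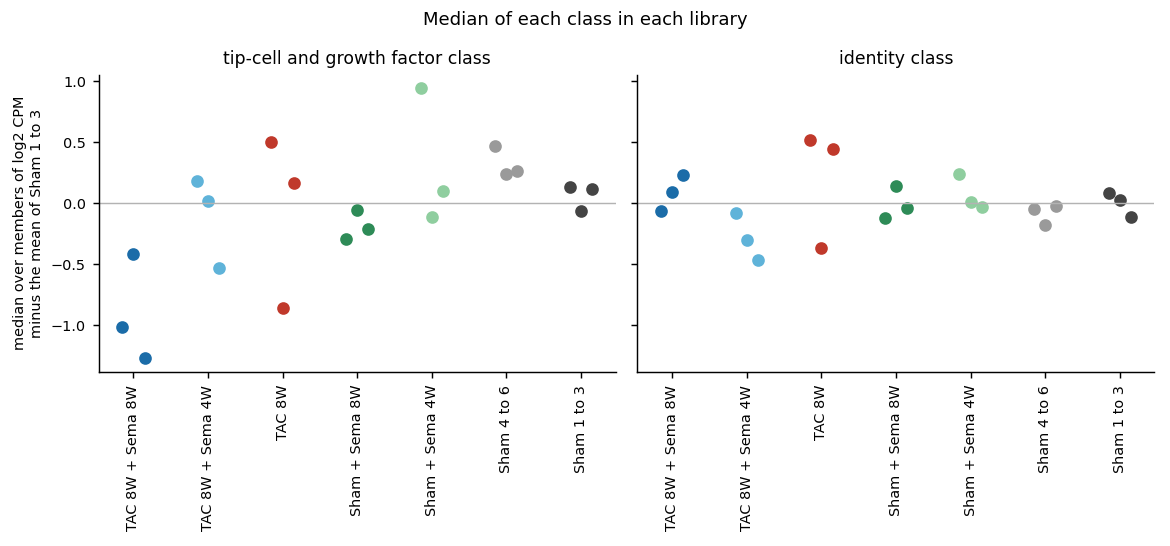
Median log2 difference from the Sham 1 to 3 mean over the 12 tip-cell and growth factor genes and over the 23 identity genes, in each library, by group. In TAC 8W the identity median was 0.52, -0.37 and 0.44. With Esm1 included, the tip-cell and growth factor median was -1.02, -0.42 and -1.27 in TAC 8W + Sema 8W. In TAC 8W it was 0.51, -0.86 and 0.17, so replicate 2 lay within the Sema range.

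Sema for the whole 8 weeks was compared with vehicle in TAC hearts. In TAC 8W + Sema 8W hearts Nrp1, a neuropilin that binds VEGF-A and semaphorins, and Vegfa fell. These were 2 of the 36 genes other than Esm1, and none of the 36 rose. Esm1, kept for testing only through TAC 8W, was also lower. Over all genes tested 5.64% passed, and of these 716 genes 653 were lower and 63 higher. Of the 11 tip-cell and growth factor genes other than Esm1, 9 were below TAC 8W, 7 of them by more than 1 log2 unit, with a median log2 fold change of -1.20 (-1.32 with Esm1), beside -0.12 over all genes. Some of the 7 rested on few reads. Pooled counts in TAC 8W + Sema 8W against TAC 8W were 13 against 31 for Angpt1 and 8 against 40 for Apln, and Angpt2 averaged 0.78 against 2.55 CPM. The identity genes had a median of 0.03 with 11 of 23 below TAC 8W, and 0 of them passed the edgeR test, with 4 at an unadjusted p under 0.05 (19.9% over all genes), 1 called by DESeq2 and 1 by limma-voom. TAC 8W replicate 2 had a tip-cell and growth factor median of -0.86 from Sham 1 to 3, Esm1 included, within the range of the TAC 8W + Sema 8W libraries. The difference between the classes was not tested.

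Nrp1 (ENSMUSG00000025810, chr8:128358604-128503363) had 14.5, 14.5 and 12.5 CPM in TAC 8W + Sema 8W, against 49.3, 26 and 46 CPM in TAC 8W. The groups did not overlap, and the Sema libraries were close to each other. The means of 13.9 ± 1.17 and 40.4 ± 12.6 CPM (SD, n = 3 each) differed by log2 -1.55 (SE 0.28, adjusted p = 0.00303). The call held without any single library, and was lost when each library's trend with gene length and GC content was removed, where log2 was -0.54 (adjusted p = 0.525). Vegfa had 26.1, 46.1 and 30.0 CPM in TAC 8W + Sema 8W, against 117, 62.2 and 98.4 CPM in TAC 8W (log2 -1.44, SE 0.29, adjusted p = 0.00615), again without overlap, and the call was lost without TAC 8W replicate 1 or TAC 8W + Sema 8W replicate 3. Esm1 had 1, 6 and 1 counts in TAC 8W + Sema 8W, against 35, 16 and 14 in TAC 8W, a pooled ratio of 0.120 (0.0497 to 0.25; fitted log2 -3.02, SE 0.69, adjusted p = 0.0121). This call was lost without TAC 8W replicate 1 or without TAC 8W + Sema 8W replicate 1 or 3.

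The remaining genes of the tip-cell and growth factor class did not pass. Nrp2, the neuropilin of veins and lymphatics, had 2.76, 5.15 and 2.07 CPM in TAC 8W + Sema 8W, against 18.5, 3.01 and 16.7 CPM in TAC 8W (log2 -1.93, SE 0.69, adjusted p = 0.108), and TAC 8W replicate 2 lay inside the Sema range. Vegfc, the lymphangiogenic VEGF, had 4.31, 4.34 and 2.7 CPM in TAC 8W + Sema 8W, against 9.27, 9.31 and 7.58 CPM in TAC 8W, without overlap (log2 -1.20, SE 0.36, adjusted p = 0.0578). Apln, which encodes apelin, had 8 counts in TAC 8W + Sema 8W, against 40 in TAC 8W, a pooled ratio of 0.195 (0.0787 to 0.422). Angpt2, Aplnr, Angpt1 and Dll4 had log2 fold changes of -1.72, -0.85, -1.18 and -0.29, and the 2 genes above TAC 8W were Pgf at 0.56 and Vegfb at 0.36.

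Within the identity class, values of both signs were seen. Gpihbp1 had 187, 154 and 177 CPM in TAC 8W + Sema 8W, against 87.4, 62.3 and 91.2 CPM in TAC 8W, without overlap (log2 1.10, SE 0.33, adjusted p = 0.0552). Rescaling with RLE size factors or without mitochondrially encoded genes brought Gpihbp1 past the threshold and made the calls 3 lower and 1 higher. Erg and Fli1 had log2 fold changes of -1.51 and -1.04. The receptors Kdr and Tek had -1.03 and -0.98. Kdr had 27.3, 45.4 and 33.2 CPM in TAC 8W + Sema 8W, against 69.0, 33.3 and 114 CPM in TAC 8W (adjusted p = 0.158), and replicate 2 of TAC 8W again lay with the Sema libraries. The 9 surface, junction and secreted genes stayed between -0.55 and 0.49. Sox18, a partner of Sox17 in vessel development, had 0.76 (SE 0.38, adjusted p = 0.275), Notch1 had -0.49 and Hey1 had 0.26.

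**Figure D4:**
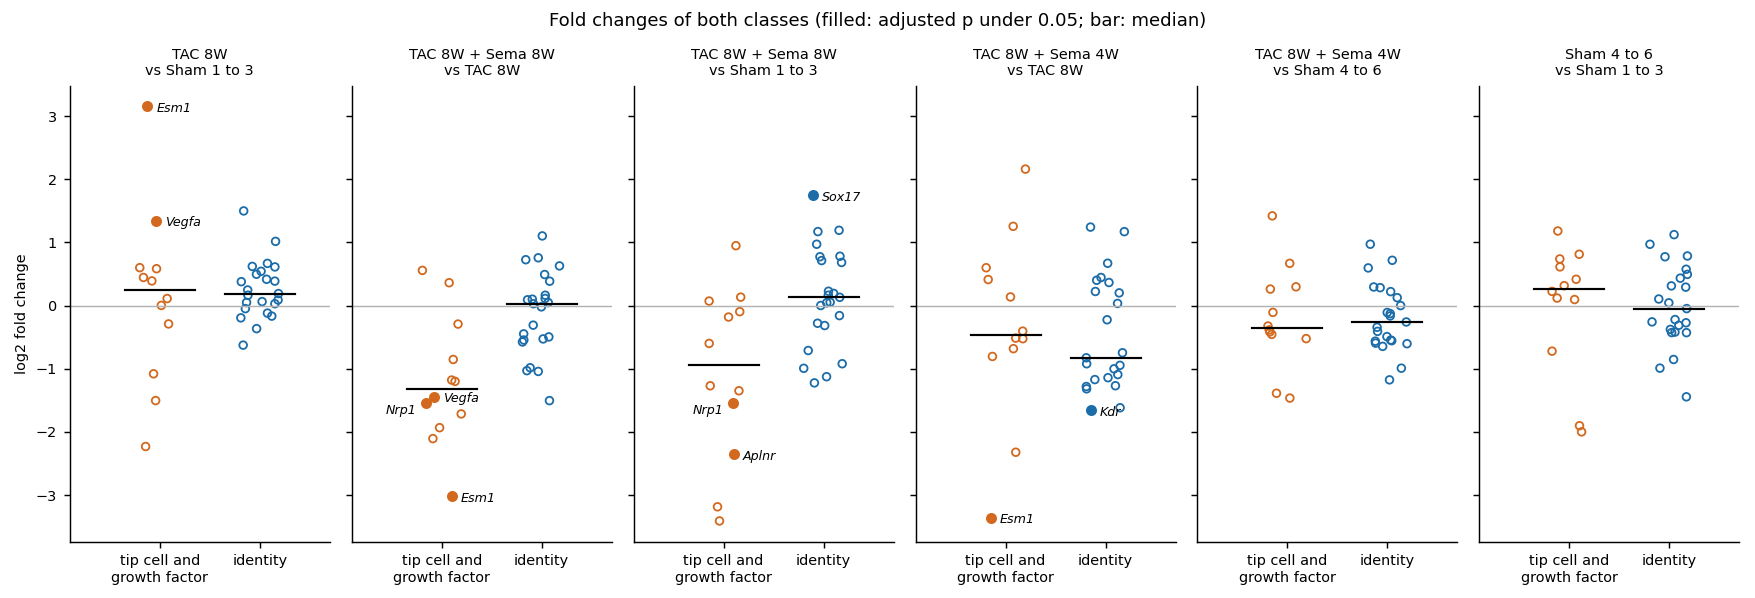
Log2 fold change of each gene of the tip-cell and growth factor class and of the identity class in 6 comparisons, with filled points for genes at an adjusted p under 0.05 and a black line at the median of each class. In TAC 8W + Sema 8W against TAC 8W the tip-cell and growth factor median was -1.32 with Esm1 included, and the identity median was 0.03.

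Of 10 fibroblast markers, 4 fell with 8 weeks of Sema (Col1a1, Col1a2, Col3a1 and Postn), with sums of 1806 to 2125 CPM in TAC 8W + Sema 8W, against 1479 to 4172 CPM in TAC 8W. Of 10 mural markers, 1 passed (Rgs5, lower), with sums of 232 to 361 CPM in TAC 8W + Sema 8W, against 262 to 439 CPM in TAC 8W. Of 10 cardiomyocyte markers 1 passed (Ttn, lower), while 6 of the 10 were higher and the median log2 fold change of the list was 0.22. The sums were 64559 to 71561 CPM in TAC 8W + Sema 8W, against 38596 to 77683 CPM in TAC 8W. The lowest sum was that of TAC 8W replicate 1, the library without which the calls of Vegfa and Esm1 were lost. The part of these markers in the result was not tested.

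Set against Sham 1 to 3, the TAC 8W + Sema 8W hearts had Vegfa close to the sham level and Nrp1 and Aplnr below it. Sox17 rose, Nrp1 and Aplnr fell, and 3.35% of all genes passed. This comparison shares its Sema libraries with the one above and its shams with the TAC comparison. Aplnr had 2.01, 4.34 and 3.53 CPM in TAC 8W + Sema 8W, against 14.2, 11.6 and 25.1 CPM in Sham 1 to 3 (log2 -2.36, SE 0.46, adjusted p = 0.0091). The groups did not overlap, and the call was lost without TAC 8W + Sema 8W replicate 1 or Sham replicate 3. Sox17 had 27.5, 20.1 and 19.5 CPM in TAC 8W + Sema 8W, against 8.87, 7.19 and 3.86 CPM in Sham 1 to 3, without overlap (log2 1.74, SE 0.40, adjusted p = 0.0246). Sox17 lost its call without TAC 8W + Sema 8W replicate 1 or 3 or without Sham replicate 1 or 3. Nrp1 had 14.5, 14.5 and 12.5 CPM in TAC 8W + Sema 8W, against 43.6, 33.4 and 44.2 CPM in Sham 1 to 3 (log2 -1.54, SE 0.28, adjusted p = 0.00561), and this call too was lost once the length and GC trends were removed (log2 -0.75, adjusted p = 0.318).

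Vegfa in TAC 8W + Sema 8W differed from Sham 1 to 3 by log2 -0.10 (SE 0.29, adjusted p = 0.902), and Esm1 had 8 counts in TAC 8W + Sema 8W, against 6 in Sham 1 to 3, a pooled ratio of 1.15 whose interval ran from 0.350 to 4.03. Gpihbp1 had log2 1.19 (SE 0.33, adjusted p = 0.0516), with 187, 154 and 177 CPM in TAC 8W + Sema 8W, against 93.2, 72.0 and 61.3 CPM in Sham 1 to 3. Angpt1 had 6, 6 and 1 counts in TAC 8W + Sema 8W, against 48, 46 and 28 in Sham 1 to 3, a pooled ratio of 0.0920 (0.0476 to 0.163; adjusted p = 0.056), and Apln had 8 counts in TAC 8W + Sema 8W, against 67 in Sham 1 to 3, a pooled ratio of 0.103 (0.0428 to 0.215; adjusted p = 0.0782). Both low-count genes lay below the shams in each library, yet neither passed. The identity class had a median of 0.13, with 10 of 23 genes at an unadjusted p under 0.05, where 18.1% of all genes were. The tip-cell and growth factor class had a median of -1.27 without Esm1 and -0.93 with it.

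**Figure D5:**
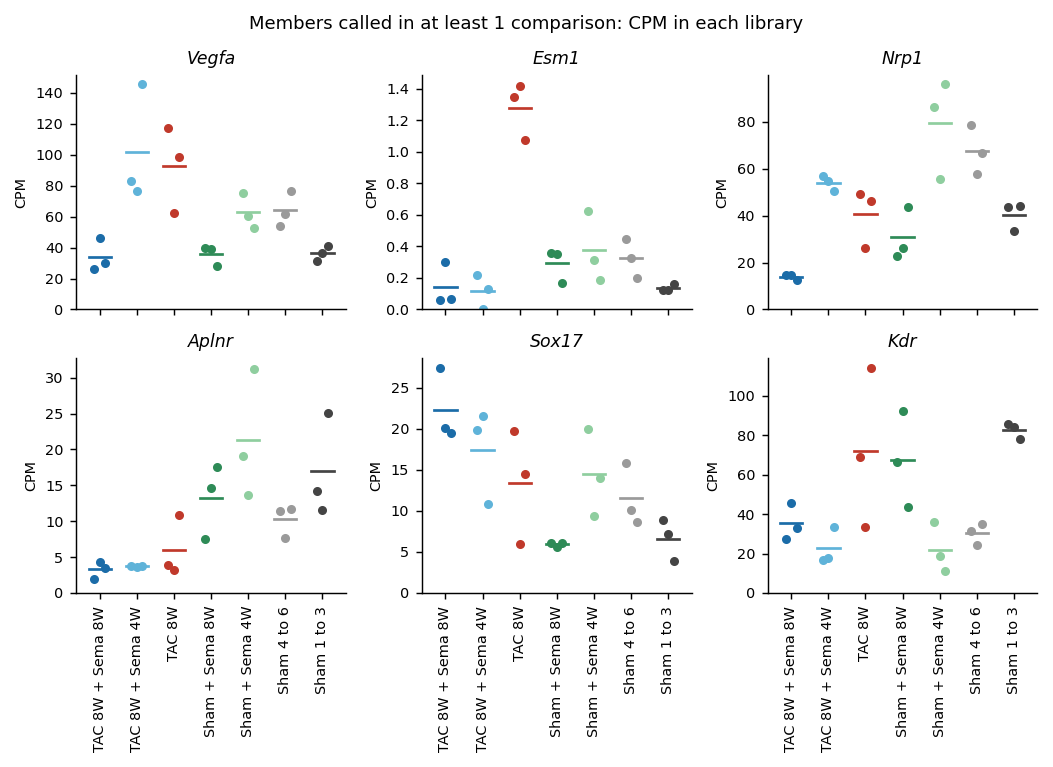
CPM in every library, by group, of Vegfa, Esm1, Nrp1, Aplnr, Sox17 and Kdr, which passed the test in at least 1 comparison, with points for libraries, lines for group means and a vertical axis that starts at 0. Vegfa was 62.2 to 117 CPM in TAC 8W and 26.1 to 46.1 CPM in TAC 8W + Sema 8W, and Nrp1 was 12.5 to 14.5 CPM in TAC 8W + Sema 8W.

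Sema in sham-operated hearts was tested against the vehicle shams set beside each group, and none of the 37 genes passed in either set. In Sham + Sema 8W against Sham 1 to 3 the edgeR test called 0 of 37, 0 had an unadjusted p under 0.05, and DESeq2 and limma-voom called 0 each, where 0% of all genes passed. Vegfa had 39.8, 39.1 and 27.9 CPM in Sham + Sema 8W, against 31.4, 36.8 and 41.1 CPM in Sham 1 to 3, with overlap. Nrp1 had 22.9, 26.2 and 43.5 CPM in Sham + Sema 8W, against 43.6, 33.4 and 44.2 CPM in Sham 1 to 3 (log2 -0.40, SE 0.27). Gpihbp1 had 96.1 to 149 CPM in Sham + Sema 8W, against 61.3 to 93.2 CPM in Sham 1 to 3, without overlap (log2 0.61, SE 0.33, edgeR adjusted p = 0.892). In Sham + Sema 4W against Sham 4 to 6 the test again called 0 of 37, with 6 at an unadjusted p under 0.05 (14.2% over all genes), 0 by DESeq2 and limma-voom and 0% of all genes. The interaction, which is the Sema 8W difference in TAC hearts minus that in sham hearts, asked whether the response to Sema depended on TAC. It called 0 of 37 genes by edgeR, DESeq2 and limma-voom, and 0.497% of all genes were called by edgeR. At an unadjusted p under 0.05 there were 3, or 2 without Esm1 (11.0% over all genes). The 2 were Vegfa (log2 -1.41, SE 0.41, adjusted p = 0.127) and Nrp1 (-1.15, SE 0.39, adjusted p = 0.196). Esm1, kept only through TAC 8W, had log2 -4.16 (SE 1.06, adjusted p = 0.0823). So the lower Vegfa and Nrp1 with Sema in TAC hearts were not shown to differ from the effect in sham hearts.

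Sema for the last 4 weeks was compared with TAC 8W across the sets of libraries named above. Kdr, the main signalling receptor for VEGF-A, was lower in TAC 8W + Sema 4W. It was the 1 gene called of the 36 other than Esm1, where 7.18% of all genes passed. Esm1, kept for testing only through TAC 8W, was lower too. Kdr (ENSMUSG00000062960, chr5:75932827-75978458) had 16.6, 17.9 and 33.7 CPM in TAC 8W + Sema 4W, against 69.0, 33.3 and 114 CPM in TAC 8W, and the groups overlapped at 33.7 and 33.3 CPM (log2 -1.66, SE 0.42, adjusted p = 0.0213). The call was lost without TAC 8W replicate 1 or 3 and without TAC 8W + Sema 4W replicate 1 or 2. It was also lost when only the groups compared were fitted and with replicate number added to the fit as a block. The vehicle shams differed in the same direction, with 31.4, 24.4 and 35.1 CPM in Sham 4 to 6, against 85.4, 84.0 and 78.0 CPM in Sham 1 to 3 (log2 -1.44, SE 0.42, adjusted p = 0.0632). With this sham difference subtracted, Kdr had log2 -0.21 (adjusted p = 1) and 0 of the 37 genes passed. Esm1 had 2, 0 and 2 counts in TAC 8W + Sema 4W, against 35, 16 and 14 in TAC 8W. The pooled ratio was 0.0902 (0.0239 to 0.242, fitted adjusted p = 0.0114). The Esm1 call was lost without the library that held 0 and when only the groups compared were fitted.

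Unlike after 8 weeks of Sema, Vegfa and Nrp1 did not pass here, though this contrast of durations was not tested. Vegfa had 82.8, 76.8 and 146 CPM in TAC 8W + Sema 4W, against 117, 62.2 and 98.4 CPM in TAC 8W (log2 0.14, SE 0.29, adjusted p = 0.796). Nrp1 had 56.8, 54.5 and 50.5 CPM in TAC 8W + Sema 4W, against 49.3, 26 and 46 CPM in TAC 8W (log2 0.41, SE 0.27, adjusted p = 0.363). Both genes were also higher in Sham 4 to 6 than in Sham 1 to 3, by log2 0.81 (adjusted p = 0.136) and 0.74 (adjusted p = 0.15).

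Several identity genes lay just short of the threshold, and which of them passed depended on single libraries. At an unadjusted p under 0.05 there were 14 of the 23, against 23.9% of all genes, with a class median of -0.83, beside -0.03 over all genes. Aqp1 had 43.7, 45.3 and 51.9 CPM in TAC 8W + Sema 4W, against 152, 90.6 and 190 CPM in TAC 8W, without overlap (log2 -1.62, SE 0.49, adjusted p = 0.05, just above the threshold). Vwf had 34.8, 23.7 and 21.9 CPM in TAC 8W + Sema 4W, against 73.4, 36.8 and 44.3 CPM in TAC 8W (log2 -0.95, SE 0.30, adjusted p = 0.0591). Flt4, the VEGF-C receptor, had 4.79, 3.60 and 5.78 CPM in TAC 8W + Sema 4W, against 18.8, 3.81 and 12.6 CPM in TAC 8W (log2 -1.32, SE 0.46, adjusted p = 0.0906), and TAC 8W replicate 2 lay among the Sema libraries. S1pr1 had 17.8, 19.2 and 24.3 CPM in TAC 8W + Sema 4W, against 52.8, 25.6 and 59.9 CPM in TAC 8W, without overlap (log2 -1.17, SE 0.40, adjusted p = 0.0837). Cav1 and Nos3 had log2 fold changes of -1.09 (adjusted p = 0.141) and 0.03. For Nrp2 the values were 0.87, 1.54 and 5 CPM in TAC 8W + Sema 4W, against 18.5, 3.01 and 16.7 CPM in TAC 8W (log2 -2.32, SE 0.71, adjusted p = 0.0512), and for the receptor Notch1 they were 6.63, 7.20 and 9.93 CPM in TAC 8W + Sema 4W, against 24.7, 8.25 and 20.8 CPM in TAC 8W (log2 -1.18, SE 0.48, adjusted p = 0.143). Of the 23 identity genes 9 were higher, 3 of them at an unadjusted p under 0.05. These were Sox18, with 61.1, 60.4 and 22.1 CPM in TAC 8W + Sema 4W, against 18.4, 19.1 and 26.2 CPM in TAC 8W (log2 1.17, SE 0.38, adjusted p = 0.0682), Egfl7, an endothelial matrix protein, and Eng at log2 0.67 (SE 0.32, adjusted p = 0.204). Egfl7 had 126, 146 and 45.6 CPM in TAC 8W + Sema 4W, against 36.8, 41.1 and 56.2 CPM in TAC 8W (log2 1.24, SE 0.42, adjusted p = 0.0761), and replicate 3 lay inside the TAC 8W range. Angpt1 had 4, 8 and 96 counts in TAC 8W + Sema 4W, against 20, 2 and 9 in TAC 8W, so its log2 of 2.16 rested on replicate 3. Replicate 3 also stood apart for Esam, a tight junction protein, with 97.7, 96.8 and 40.0 CPM. With this replicate left out 13 of the 37 passed, with TAC 8W replicate 2 left out 8 passed, and with replicate 2 of the Sema group left out 0 passed. The share of all genes passing in these fits is not given here.

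Of 10 fibroblast markers 7 passed and all 7 were lower with 4 weeks of Sema, with sums of 719 to 1087 CPM in TAC 8W + Sema 4W, against 1479 to 4172 CPM in TAC 8W, and of 10 macrophage markers 1 passed (Adgre1, lower), with sums of 55.3 to 106 CPM in TAC 8W + Sema 4W, against 87.2 to 364 CPM in TAC 8W. The mitochondrial share, 43.8% to 49.0% in TAC 8W + Sema 4W and 21.3% to 30.1% in TAC 8W, moved with them. Of 10 cardiomyocyte markers 0 passed, while 9 were higher, with a list median of 0.60. Their sums were 72244 to 93296 CPM in TAC 8W + Sema 4W, against 38596 to 77683 CPM in TAC 8W. The medians of the other lists were -1.83 (fibroblast), -1.69 (macrophage), -2.11 (lymphatic), -1.07 (endocardial) and -0.47 (mural). The part of these shifts in the identity values was not tested. The sets of libraries and the treatment cannot be told apart in this comparison.

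Within the second set, TAC 8W + Sema 4W against Sham 4 to 6 gave 0 of 37 genes by edgeR, with 7 at an unadjusted p under 0.05 (15.2% over all genes), 2 by DESeq2 and 0 by limma-voom, where 1.99% of all genes passed. No TAC hearts with vehicle stood in that set. Vegfa had 82.8, 76.8 and 146 CPM in TAC 8W + Sema 4W, against 53.9, 61.6 and 76.6 CPM in Sham 4 to 6 (log2 0.67, SE 0.29, adjusted p = 0.266). Its lowest TAC value, 76.8 CPM, was next to the highest sham value of 76.6 CPM. Vwf had 34.8, 23.7 and 21.9 CPM in TAC 8W + Sema 4W, against 63.9, 44.6 and 51.2 CPM in Sham 4 to 6, without overlap (log2 -0.99, SE 0.30, adjusted p = 0.0915). Aplnr had 3.70, 3.60 and 3.83 CPM in TAC 8W + Sema 4W, against 11.4, 7.69 and 11.7 CPM in Sham 4 to 6, also without overlap (log2 -1.46, SE 0.46, adjusted p = 0.101). Of 10 fibroblast markers 2 passed, both lower (Gsn and Dpt), with a list median of -0.94 and sums of 719 to 1087 CPM in TAC 8W + Sema 4W, against 1877 to 2773 CPM in Sham 4 to 6. Of 10 macrophage markers 0 passed, with 8 at an unadjusted p under 0.05, a list median of -1.85 and sums of 55.3 to 106 CPM in TAC 8W + Sema 4W, against 222 to 299 CPM in Sham 4 to 6. Their part in the values above was not tested. Sham 4 to 6 against Sham 1 to 3, a comparison of vehicle shams only, called 0 of 37 by edgeR, with 8 at an unadjusted p under 0.05 (18.5% over all genes) and 1 by DESeq2 and 1 by limma-voom, where 3.29% of all genes passed.

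Other endothelial and angiogenesis genes, taken from lists of function, moved in the same comparisons as follows. Of 41 further angiogenesis genes, 2 rose in TAC 8W against Sham 1 to 3, where 2.19% of all genes passed. These were Thbs1, a matrix protein that restrains angiogenesis (log2 4.36, adjusted p = 0.00327), and Adamts1, a matrix protease (log2 2.60, adjusted p = 0.0341). With 8 weeks of Sema, 4 of the 41 fell and 0 rose against TAC 8W, where 5.64% of all genes passed, 653 of them lower and 63 higher. The 4 included Thbs1 (log2 -3.69, adjusted p = 0.0044), the hypoxia-inducible factor subunit Hif1a (log2 -2.02, adjusted p = 0.0224) and Adamts1 (log2 -2.16, adjusted p = 0.0456). The 30 further endothelial genes had 0 calls in TAC 8W against Sham 1 to 3, with 6 at an unadjusted p under 0.05. With 8 weeks of Sema, 2 of the 30 rose against TAC 8W, Car4, the capillary carbonic anhydrase (log2 1.96, adjusted p = 0.0164), and Rgcc (log2 1.39, adjusted p = 0.0235). In the same comparison 1 fell, the C-type lectin Cd93 (log2 -1.71, adjusted p = 0.0185). Of 6 cell cycle genes, 2 fell with 8 weeks of Sema, Mki67 (log2 -3.66, adjusted p = 0.00378) and Top2a (log2 -2.50, adjusted p = 0.0303). The medians over all genes, -0.12 in that comparison and 0.08 in TAC 8W against Sham 1 to 3, stand beside list medians of -0.38 and 0.41 for the angiogenesis genes and -0.32 and 0.16 for the endothelial genes.

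After 4 weeks of Sema against TAC 8W, across the sets of libraries, 7.18% of all genes passed, 531 of them higher and 380 lower. Of the 41 angiogenesis genes 7 fell and 0 rose, and of the 30 endothelial genes 4 fell and 1 rose. Thbs1 (log2 -4.26) was among the first, and the stem and progenitor marker Cd34 (log2 -1.42, adjusted p = 0.0147) and the haematopoietic and endothelial cofactor Lmo2 (log2 -1.39, adjusted p = 0.0064) among the second. Car4 rose here too (log2 2.12). Against Sham 4 to 6, where 1.99% of all genes passed, Angptl4, a lipoprotein lipase inhibitor, was the 1 angiogenesis gene that rose (log2 3.62, adjusted p = 0.0212). In TAC 8W + Sema 8W against Sham 1 to 3, where 3.35% of all genes passed, 1 of the 30 endothelial genes rose (Rgcc) and 1 of the 41 angiogenesis genes fell (Pdgfa). Of 5 lymphatic markers tested, 1 passed in that comparison (Prox1, lower). Of 3 endocardial markers 0 passed in any of the comparisons by edgeR, with 2 at an unadjusted p under 0.05 in TAC 8W + Sema 4W against TAC 8W (23.9% over all genes).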

How the data were processed

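RNA-seq was read from 21 left ventricular libraries in 7 groups of 3. The authors made the table of raw read counts per gene, and the submitters' processing notes name cutadapt 1.11, hisat2, featureCounts 1.6.0 and the mm10 genome. For the annotation and the strand setting of the counting, none is given in the sources used here, so reads of overlapping genes may be split. Of the 21 columns, 12 were matched to samples by name, 3 marked high were read as TAC 8W + Sema 8W and 6 marked M, a mark undefined in the sources used here, were assigned by elimination to the Sema groups of the 4-week arm. Symbols were paired with 22118 of 22136 gene IDs through GENCODE M21.

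Genes with at least 10 counts in at least 3 libraries were kept. TMM scaling factors were applied, and the counts were modelled in edgeR 4.0.16 (R 4.3.3) by quasi-likelihood with a mean for each of the 7 groups over all 21 libraries. P-values were adjusted by Benjamini-Hochberg over all 12685 genes, with a threshold of 0.05. CPM are TMM-scaled, log2 CPM carry a prior count of 2, and SE is the absolute log2 fold change over the square root of F. Intervals on pooled counts are exact conditional 95% binomial intervals scaled by library size, and cover counting error only. On data simulated for TAC 8W against Sham 1 to 3, with 100 genes changed at each size among 12685, the test recovered 10% of genes changed 2-fold and 56% of those changed 4-fold, so at this size many 2-fold differences would not be called.

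The 37 genes, the other lists and the tests were chosen with earlier results of these data known. Genes with a call are given by library, as are others near the threshold or chosen by role, and the rest by fold change or range. Genes of other lists were named from the 3 smallest p-values of a comparison. DESeq2 1.42.0, limma-voom (limma 3.58.1), other scalings and filters, other references, each library left out in turn and a replicate block were tried as alternatives. Counts of calls under an alternative are given without the share of all genes called in it. Removal of each library's trend with length and GC content, and omission of TAC 8W + Sema 4W replicate 3 from comparisons that do not hold it, were chosen after seeing the data.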

Additional observations from a re-analysis of the deposited data

How the results depend on the processing

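The number of the 37 genes called depended on the processing. It was 2 for TAC 8W against Sham 1 to 3, 3 for TAC 8W + Sema 8W against TAC 8W, 3 for TAC 8W + Sema 8W against Sham 1 to 3, 2 for TAC 8W + Sema 4W against TAC 8W and 0 for the other 4 comparisons and the interaction. Esm1, kept only through TAC 8W, is in the first, the second and the fourth of these, and without it they are 1, 2, 3 and 1, with ranges over the alternatives of 0 to 3, 1 to 5, 1 to 13 and 0 to 12. In the same order of comparisons, Esm1 included, DESeq2 gave 4, 5, 6 and 7, and also 2 for TAC 8W + Sema 4W against Sham 4 to 6 and 1 for Sham 4 to 6 against Sham 1 to 3. Limma-voom gave 4 and 5 for the first and the second, and 1 between the shams. With no filter on counts the number was 5 for TAC 8W + Sema 8W against Sham 1 to 3, 5 for TAC 8W + Sema 4W against TAC 8W and 1 between the shams. Fits of only the groups compared gave 4 for TAC 8W against Sham 1 to 3, 13 for TAC 8W + Sema 8W against Sham 1 to 3, 0 for TAC 8W + Sema 4W against TAC 8W and 8 between the shams. With all 6 shams as the reference, TAC 8W + Sema 8W gave 6, TAC 8W + Sema 4W gave 2 and Sham + Sema 4W gave 2. Minus the difference between the shams, TAC 8W + Sema 4W against TAC 8W gave 0. Added after seeing the data, the fit without TAC 8W + Sema 4W replicate 3 gave 5 for TAC 8W + Sema 8W against TAC 8W, 6 for it against Sham 1 to 3 and 2 between the shams, and removal of the length and GC trends gave 5 for TAC 8W + Sema 4W against TAC 8W and 1 between the shams. For none of the alternatives, the fits with 1 library left out included, is the share of all genes called given beside the count. A higher count is therefore not read as a trait of these 37 genes. In these alternatives the cause of the change was not tested. Fits of fewer libraries also hold fewer residual degrees of freedom, and the part of this in the changes was not tested.

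With 1 library left out in turn, the calls ranged from 0 to 3 for TAC 8W against Sham 1 to 3, 1 to 6 for TAC 8W + Sema 8W against TAC 8W, 1 to 6 for it against Sham 1 to 3, 0 to 13 for TAC 8W + Sema 4W against TAC 8W, 0 to 2 for it against Sham 4 to 6 and 0 to 1 for the interaction, 0 to 2 between the shams and 0 to 0 for the others. For TAC 8W against Sham 1 to 3 the 0 came without Sham 1 to 3 replicate 1 or 2 or without TAC 8W replicate 1. For TAC 8W + Sema 8W against TAC 8W the 1 (Nrp1) came without TAC 8W replicate 1 or TAC 8W + Sema 8W replicate 3, and the 6 without TAC 8W replicate 2. For it against Sham 1 to 3 the 1 (Nrp1) came without Sham 1 to 3 replicate 3 or TAC 8W + Sema 8W replicate 1. The log2 fold change of Flt4 in TAC 8W against Sham 1 to 3 ranged from -0.062 without TAC 8W replicate 1 to 0.909 without TAC 8W replicate 2, the only named gene and alternative of those run in which a direction reversed. Over all alternatives, 108 counts of calls moved by less than 1.5 times, 26 moved by more, 6 fell to 0 and 11 went above 0, and 306 values of named genes kept direction and side of the threshold, while 35 lost the threshold and 21 crossed it. The median over all genes in TAC 8W + Sema 8W against TAC 8W was -0.12 by TMM and -0.01 without mitochondrially encoded genes.

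Replicate numbers did not pair the libraries. Of 45 same-numbered pairs, 11 had deviations correlated above 0.1 (mean -0.03, against 0.01 for different numbers), and 3 of 18 libraries correlated best with their own number. With a replicate block over these 18, TAC 8W against Sham 1 to 3 gave 1 call (Aplnr), TAC 8W + Sema 8W against TAC 8W gave 2, TAC 8W + Sema 4W against TAC 8W gave 1 (Esm1) and the interaction 0. Depth limits Esm1, Apln and Angpt1 most, whose libraries often held under 10 counts.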
